A study of Rattus norvegicus with 26 samples.

Results

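Primary astrocyte cultures were compared with primary oligodendrocyte cultures, both grown from cortex of newborn rats (pups at postnatal day 1). The comparison rests on the 4 arrays labelled as astrocytic culture and the 4 labelled as oligodendrocytic culture, 8 of the 26 arrays of the series, chosen by those labels alone. Of the other arrays, 4 labelled as neuronal and 4 as microglial culture shared the fit and gave a scale for their own marker genes. The 10 mixtures of culture RNA were left out. Microglial replicate 4 carries no postnatal day, and its description calls it an RNA mixture, although its title and cell type name a microglial culture. It was kept in the fit and in the microglial means. The labels used here name no strain, sex, genetic change, drug, medium or time in culture, so the culture type is the only stated difference between the groups. Each group holds 4 biological replicates by the study's design, with nothing further on litters or dishes. The standard errors (SE) and p-values measure the spread within all 4 culture types of the fit, neuronal and microglial included. That spread may be partly technical. For the gene Enpp2 the SD was 0.23 in astrocyte and 0.22 in oligodendrocyte cultures, but 1.51 in neuronal and 0.86 in microglial cultures. Its SE was 0.56. For Cd69 the adjusted p in limma was 0.0139 in the shared fit and 0.0795 in a fit of the 8 arrays alone.

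Astrocytes and oligodendrocytes are the macroglia of the brain. Astrocytes clear glutamate and potassium around synapses, are coupled by gap junctions, and lay down matrix at the surface of the brain and around vessels. Oligodendrocytes develop from proliferating precursors that carry the PDGF receptor alpha, under transcription factors such as Sox10, Olig2 and Myrf, and wrap axons in myelin, a membrane rich in cholesterol and galactolipids. Glia of newborn cortex are commonly grown as a mixed layer from which the loosely attached oligodendrocyte-lineage cells and microglia are taken off, so each culture can hold cells of the other kinds. A bulk array reads the RNA of the whole dish, and fewer cells of a type cannot be told apart from less RNA per cell.

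Values are log2 signals of the deposited table, and every difference below is astrocyte minus oligodendrocyte on that scale, ± SE of the fit, so a negative difference means a higher signal in oligodendrocyte cultures. A gene was called when its adjusted p in limma (Benjamini-Hochberg over 31042 probe sets) was below 0.05 and the difference was at least 1, a change of 2-fold. Array medians lay between 5.25 and 5.31. Of the 2925 genes called, 1041 had a lower group mean below those medians, where background signal compresses differences, and such a difference is best read as a lower limit. Signals of different probe sets have no common scale, so levels are compared only within a gene.

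Arrays of 1 culture type were closer to each other than to the other type. Pearson's r over all probe sets was between 0.967 and 0.985 within oligodendrocyte cultures and between 0.986 and 0.995 among astrocyte replicates 1 to 3, against 0.856 to 0.893 between the culture types. Astrocyte replicate 4 stood apart, with r between 0.942 and 0.957 to the other astrocyte arrays, still above its correlation with any oligodendrocyte array. Astrocyte replicates 2 and 3 were the closest pair (r = 0.995, median absolute difference 0.125, against 0.154 to 0.282 for the other astrocyte pairs). Where leaving out astrocyte replicate 4 changed the call of a gene named below, the value without it is given. Counts of genes in the lists below are with all arrays unless stated, and some differed without it. Astrocyte-side counts fell from 14 to 13 matrix glycoproteins and from 5 to 4 insulin-like growth factor genes. Oligodendrocyte-side counts rose from 6 to 7 neuronal genes and from 15 to 16 macrophage genes.

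In all, 4933 of 31042 probe sets were called (15.9%), 2495 higher in astrocyte (8.04%) and 2438 higher in oligodendrocyte cultures (7.85%). With 1 probe set a gene, 1624 of 14217 genes (11.4%) were higher in astrocyte and 1301 (9.15%) in oligodendrocyte cultures, and the median difference over all genes was 0.02. These shares are the background for every count of list genes below. The 4 astrocyte arrays all lay above the 4 oligodendrocyte arrays for 20.5% of genes and all below them for 19.9%, called or not. Without astrocyte replicate 4 the counts were 1740 genes (12.2%) and 1365 genes (9.6%): 81 astrocyte and 66 oligodendrocyte calls were lost, and 197 and 130 were gained. In the same fit the microglial cultures differed from oligodendrocyte cultures at fewer probe sets (10.6%) than astrocyte cultures did, and the neuronal cultures differed from each glial culture at more (21.6% to 25.7%).

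**Figure D1:**
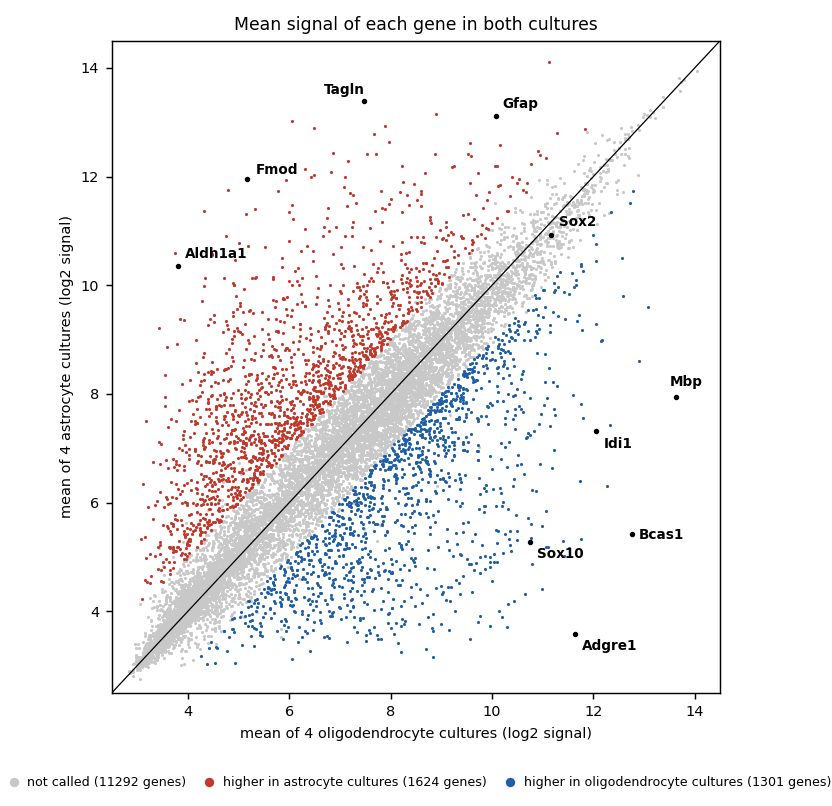
Mean log2 signal of each of 14217 genes over the 4 oligodendrocyte arrays (horizontal) and the 4 astrocyte arrays (vertical); colours mark the 1624 genes called higher in astrocyte and the 1301 called higher in oligodendrocyte cultures, and the line marks equal signal. Adgre1, with a difference of -8.05, lies far below the line, and Sox2, with -0.25, close to it.

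The 15 genes with the largest differences toward astrocyte cultures included many secreted, matrix and contractile proteins. Rnase4, a secreted ribonuclease, read 11.57, 11.52, 11.52 and 10.84 in the 4 astrocyte arrays and 4.76, 3.70, 3.80 and 4.99 in the 4 oligodendrocyte arrays. The groups lay far apart, and the difference was 7.05 ± 0.38 (adjusted p = 2.76e-09). A2m, the protease inhibitor alpha-2-macroglobulin, differed by 6.97 ± 0.46, and Serpinf1, the secreted serpin known as pigment epithelium-derived factor, by 6.95 ± 0.39. The leucine-rich proteoglycans Omd (osteomodulin) and Fmod (fibromodulin) differed by 6.84 ± 0.13 and 6.79 ± 0.25, with Omd nearly level over the astrocyte arrays (10.59, 10.57, 10.70 and 10.49). Aldh1a1, which makes retinoic acid from retinaldehyde, read 9.87, 10.65, 10.43 and 10.50 against 4.11, 3.45, 4.02 and 3.59, a difference of 6.57 ± 0.42. The remaining genes were the heat shock protein Hspb1 (6.40 ± 0.60), the glypican Gpc4 (6.18 ± 0.44), the granule protein Scg2 (6.15 ± 0.61), the calponin Cnn1 (6.11 ± 0.39), Pcp4l1 (6.09 ± 0.38), the sodium-sensing channel Scn7a (6.09 ± 0.57), the secreted factor Ccn2 (6.0 ± 0.76), the astrocyte membrane protein Mlc1 (5.95 ± 0.78) and the actin-binding protein Tagln (5.92 ± 0.63). The highest adjusted p of the 15 was that of Mlc1 (2.3e-05). That the groups did not overlap in these genes was part of how they were chosen.

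The 15 genes with the largest differences toward oligodendrocyte cultures included genes of oligodendrocytes and genes of macrophages. The largest was Adgre1, a surface receptor of macrophages, at 11.26, 11.54, 12.12 and 11.60 in oligodendrocyte arrays and 3.32, 3.77, 3.85 and 3.36 in astrocyte arrays. Its difference of -8.05 ± 0.28 (adjusted p = 6.74e-11) came with a mean of 11.59 ± 0.71 (SD, n = 4) in the microglial cultures, beside 11.63 ± 0.36 in the oligodendrocyte cultures. Other genes of myeloid cells on the list were Il1b (-6.59 ± 0.58), Aif1 (-6.17 ± 0.33), Clec4a3 (-6.08 ± 0.24), Pilra (-6.24 ± 0.69) and the Fc receptor-like gene Fcrl2 (-6.41 ± 0.47). Of the oligodendrocyte genes, Bcas1, a marker of newly forming oligodendrocytes, read 12.44, 12.77, 12.92 and 12.91 against 7.06, 4.98, 4.16 and 5.46. Its difference was -7.34 ± 0.58 (adjusted p = 1.38e-07). Ugt8, which makes the myelin lipid galactosylceramide, differed by -6.57 ± 0.54, Enpp2, the lysophospholipase D autotaxin, by -6.35 ± 0.56, and Tppp, a microtubule protein of oligodendrocytes, by -6.09 ± 0.58. The other 5 were the lipase gene Pnlip (-6.44 ± 0.43), the phosphatase regulator Ppp1r16b (-6.34 ± 0.45), the sodium pump subunit Fxyd2 (-6.29 ± 0.41), Nap1l5 (-6.24 ± 0.33) and Evi2a (-6.13 ± 0.47). Evi2a had a mean of 11.03 in microglial and 10.14 in oligodendrocyte cultures.

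The labels were then checked against markers. Of 17 measured astrocyte genes, 11 were higher in astrocyte cultures and 0 in oligodendrocyte cultures, with a median difference of 2.77. Without astrocyte replicate 4 these counts were 13 and 0. Gfap, the astrocyte intermediate filament, read 13.73, 13.35, 13.37 and 12.04 in astrocyte and 11.82, 10.63, 8.78 and 9.04 in oligodendrocyte arrays. The groups did not overlap and the difference was 3.05 ± 0.67 (adjusted p = 0.00202). Oligodendrocyte replicate 1 came close to astrocyte replicate 4, and all 4 oligodendrocyte arrays read Gfap well above the array medians. Gja1, the gap junction protein connexin 43, read 12.69, 11.87, 11.78 and 11.63 against 9.73, 6.83, 5.56 and 6.30. It differed by 4.89 ± 0.79. Aqp4, the water channel of astrocyte endfeet, read 12.67, 12.28, 12.29 and 9.97 against 10.66, 7.01, 5.17 and 5.47: here oligodendrocyte replicate 1 lay above astrocyte replicate 4. Aqp4 was still called (4.73 ± 1.01, adjusted p = 0.00166), and without astrocyte replicate 4 the difference was 5.34 ± 1.03.

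Other astrocyte genes called were S100b (3.41 ± 0.59), the glutamate carrier Slc1a3 (3.55 ± 0.60), the growth factor receptor Fgfr3 (3.69 ± 0.39), the bicarbonate carrier Slc4a4 (2.77 ± 0.60), the folate enzyme Aldh1l1 (2.77 ± 0.36) and the sodium pump subunit Atp1b2 (2.53 ± 0.58). In Atp1b2 the groups overlapped, with astrocyte replicate 4 at 7.62 and oligodendrocyte replicate 1 at 8.24. Several textbook astrocyte genes were not called. Glul, glutamine synthetase, read 11.37, 11.17, 11.22 and 11.02 in astrocyte and 11.65, 11.17, 10.12 and 10.37 in oligodendrocyte arrays, overlapping, with a difference of 0.36 ± 0.35. Fabp7, the brain fatty acid binding protein, was also at high signal in both (12.68 ± 0.57 and 12.26 ± 0.39, SD, n = 4). Slc1a2, the other glial glutamate carrier, and Gjb6, connexin 30, were below the array medians in every array of both cultures. The high-affinity carrier Slc1a1 went the opposite way to Slc1a3. It read 10.39, 10.36, 10.60 and 10.67 in oligodendrocyte and 6.05, 5.12, 5.16 and 4.94 in astrocyte arrays, a difference of -5.19 ± 0.28 (adjusted p = 3.15e-09).

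Genes of neural progenitors were also astrocyte-side genes: 6 of 10 were higher there and 0 in oligodendrocyte cultures (median 2.31). The cortical transcription factor Pax6 read 8.99, 9.07, 9.13 and 9.46 against 5.38, 4.42, 5.18 and 4.60, and differed by 4.27 ± 0.26 (adjusted p = 1.09e-08). Lhx2 (3.25 ± 0.42), Emx2 (3.11 ± 0.21), Hes1 (2.66 ± 0.34), the intermediate filament nestin (Nes, 2.70 ± 0.25) and Prom1 (1.97 ± 0.22) were also higher. Sox2, a factor of progenitors and of both glial lineages, was at 10.92 ± 0.29 and 11.17 ± 0.19 (SD, n = 4), a difference of -0.25 ± 0.27 that did not pass the test. Of 14 genes linked to reactive astrocytes, 11 were higher in astrocyte and 2 in oligodendrocyte cultures, and 11 and 0 without astrocyte replicate 4. Among the 11 with all arrays were Vim (2.98 ± 0.36), Timp1 (3.53 ± 0.41), Cd44 (1.27 ± 0.32) and Serpina3n (2.38 ± 0.56). Cd44 overlapped between the groups, with astrocyte replicate 4 at 9.14 and oligodendrocyte replicate 3 at 9.45. Lcn2, a secreted iron-binding protein often used as a sign of reactive astrocytes, was higher in oligodendrocyte cultures at 11.96, 10.26, 11.83 and 10.16 against 9.05, 9.42, 9.39 and 7.06. That call (-2.33 ± 0.74, adjusted p = 0.0232) was lost without astrocyte replicate 4 (-1.77 ± 0.72, adjusted p = 0.0735), and also without oligodendrocyte replicate 1 (-2.02) or 3 (-2.07).

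**Figure D2:**
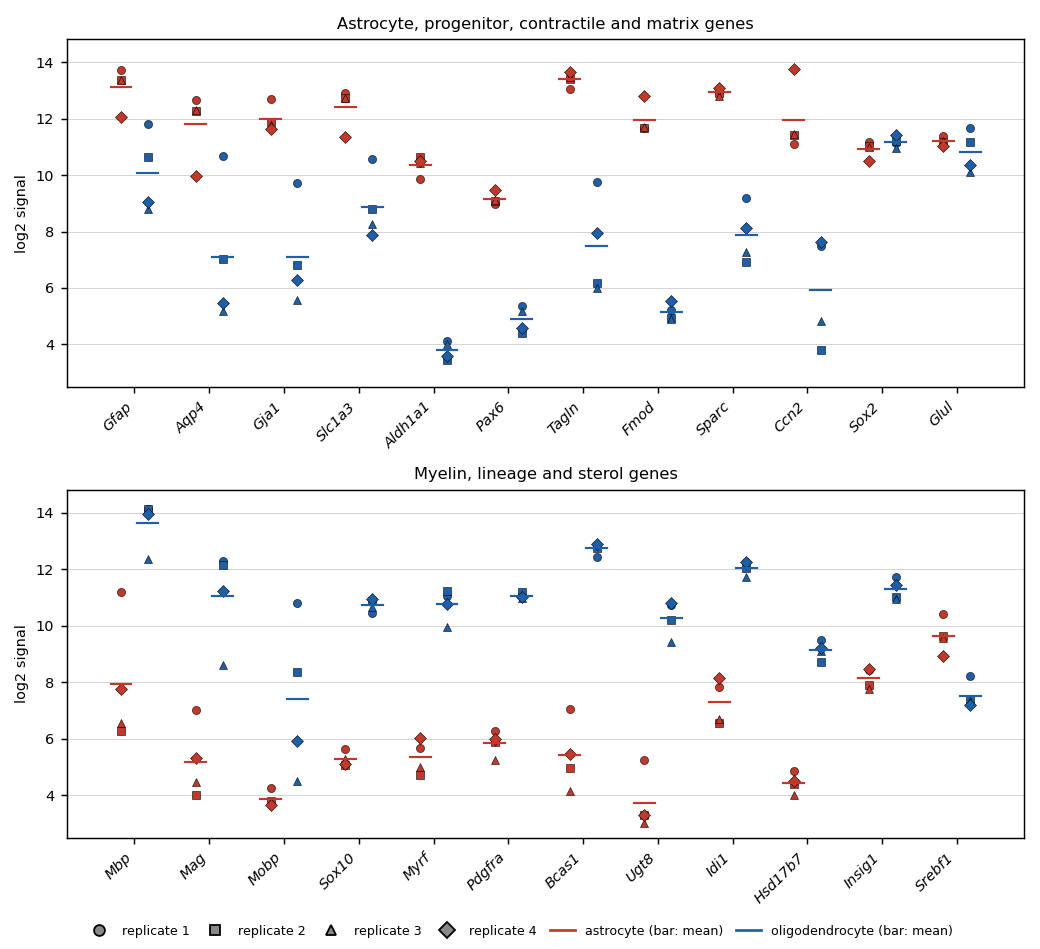
Log2 signal of 24 genes in each of the 4 astrocyte and 4 oligodendrocyte arrays; symbols mark the replicate and bars the group means. Astrocyte replicate 1 has the highest Mbp and Mag of its group (11.19 and 7.0), oligodendrocyte replicate 1 the highest Gfap and Aqp4 of its group (11.82 and 10.66), and Sox2 and Glul overlap between the groups.

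Myelin genes were higher in oligodendrocyte cultures for 13 of 21 measured genes (median -2.57). Mbp, the myelin basic protein, read 14.13, 14.13, 12.35 and 13.94 in oligodendrocyte and 11.19, 6.29, 6.54 and 7.76 in astrocyte arrays. The groups did not overlap, but astrocyte replicate 1 came nearest to oligodendrocyte replicate 3, and the difference was -5.69 ± 0.86 (adjusted p = 8.54e-05). Mag, an adhesion protein of the innermost myelin layer, read 12.28, 12.15, 8.60 and 11.24 against 7.0, 4.01, 4.46 and 5.31 and differed by -5.87 ± 0.77. Cnp, an enzyme of myelin cytoplasm, was steadier, at 13.26, 13.20, 12.67 and 13.16 against 9.85, 9.67, 9.58 and 9.25 (-3.48 ± 0.28). Further genes called were Pllp (-5.12 ± 0.48), Omg (-4.25 ± 0.22), Tspan2 (-3.93 ± 0.33), Cldn11 (-3.65 ± 0.82), Mobp (-3.54 ± 0.89), Nfasc (-3.49 ± 0.54), Sirt2 (-2.77 ± 0.32), Mog (-2.57 ± 0.57), Aspa (-2.40 ± 0.38) and Ninj2 (-1.25 ± 0.12). Aspa had a mean of 8.91 in oligodendrocyte and 8.64 in microglial cultures. Mobp was not called in a fit of the 8 arrays alone (adjusted p = 0.0519). In Cldn11 the groups overlapped, with astrocyte replicate 4 at 9.32 and oligodendrocyte replicate 3 at 9.01.

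Mal, Opalin and Ermn, also genes of myelin, had group means below the array medians in both cultures and were not called. Of the 3 probe sets of Ermn, however, 1 that was not its brightest was called higher in oligodendrocyte cultures. The 1 myelin gene called on the astrocyte side was Pmp22, the peripheral myelin protein, which many other cell types also make. It read 11.62, 11.11, 11.06 and 11.66 in astrocyte and 8.64, 7.40, 7.25 and 7.51 in oligodendrocyte arrays, a difference of 3.66 ± 0.49 (adjusted p = 2.76e-05). Plekhb1 joined it without astrocyte replicate 4 (1.36 ± 0.60 with and 2.02 ± 0.47 without it). Within the oligodendrocyte cultures the myelin genes differed between replicates: replicate 1 had the highest mean over the 21 genes (9.35) and replicate 3 the lowest (7.52). Mobp, another structural myelin protein, spanned 10.82, 8.37, 4.50 and 5.92 over those 4 arrays, and Mog, a surface protein of mature myelin, 8.70, 7.66, 4.66 and 6.25.

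Lineage regulators spanned a smaller range. Of 12 measured, 10 were higher in oligodendrocyte cultures (median -2.70), and the mean over the list was 8.57 to 8.89 over the 4 arrays. Sox10 read 10.45, 10.89, 10.65 and 10.95 against 5.64, 5.08, 5.29 and 5.11, a difference of -5.46 ± 0.33 (adjusted p = 8.07e-09). Myrf, which switches on the myelin genes, read 11.07, 11.24, 9.97 and 10.76 against 5.66, 4.73, 5.01 and 6.01 (-5.41 ± 0.43). Zfp488 (-5.85 ± 0.39), Olig1 (-4.89 ± 0.55), Nkx2-2 (-4.54 ± 0.36), Olig2 (-3.16 ± 0.41), Tcf7l2 (-2.23 ± 0.29), Zeb2 (-1.96 ± 0.25) and Nkx6-2 (-1.59 ± 0.30) were also higher.

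Of 14 genes of oligodendrocyte precursors, 10 were higher in oligodendrocyte cultures (median -2.49). Pdgfra, the receptor that marks precursors, read 11.08, 11.18, 10.98 and 11.03 against 6.27, 5.88, 5.25 and 5.98. The 4 oligodendrocyte arrays were nearly level, and the difference was -5.22 ± 0.32 (adjusted p = 9.74e-09). Enpp6, a marker of the step between precursor and myelinating cell, differed by -4.54 ± 0.45, the proteoglycan Vcan by -4.11 ± 0.59, Lhfpl3 by -3.65 ± 0.67, the semaphorin Sema5a by -3.93 ± 0.36, and the matrix protein Tnr by -2.63 ± 0.33. Cspg4, the NG2 proteoglycan that is the usual surface marker of precursors, was read by a probe set near the array medians (5.51, 6.14, 4.79 and 4.36 against 3.76, 4.71, 4.22 and 5.49) and was not called. Ptprz1 was at high signal in both cultures and was not called with its brightest probe set (-0.80 ± 0.53), although the mean of its probe sets was called higher in oligodendrocyte cultures (-2.23).

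All 17 measured genes of cholesterol synthesis were higher in oligodendrocyte cultures, with differences between -1.07 and -4.75 and a median of -2.18. Idi1, isopentenyl diphosphate isomerase, read 12.25, 12.04, 11.71 and 12.24 in oligodendrocyte and 7.82, 6.56, 6.69 and 8.15 in astrocyte arrays. The difference was -4.75 ± 0.34 (adjusted p = 5.14e-08), a fold of 27. Hsd17b7, which acts late in the pathway, read 9.49, 8.72, 9.10 and 9.21 against 4.86, 4.38, 4.0 and 4.51 (-4.69 ± 0.23). Acat2 (-3.21 ± 0.30), Mvk (-2.18 ± 0.23), Mvd (-2.80 ± 0.25), Fdps (-2.61 ± 0.24), Fdft1 (-1.91 ± 0.19) and Sqle (-2.08 ± 0.28) cover the steps from acetyl-CoA units to squalene epoxide, and Lss (-2.47 ± 0.29), Cyp51 (-2.76 ± 0.24), Msmo1 (-1.88 ± 0.15), Nsdhl (-1.76 ± 0.15), Sc5d (-1.44 ± 0.24) and Dhcr7 (-1.81 ± 0.34) those from there to cholesterol. Tm7sf2 (-2.93 ± 0.23), Pmvk (-1.08 ± 0.11) and Ebp (-1.07 ± 0.16, and -0.97 without oligodendrocyte replicate 4, below the size asked for) complete the list. The mean over the list was at least 9.66 in every oligodendrocyte array, and 7.18 to 7.60 in astrocyte, 7.11 to 7.70 in microglial and 9.36 to 10.11 in neuronal cultures, and all 17 genes were also called without astrocyte replicate 4.

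Of 7 regulators of the pathway, 3 were higher in oligodendrocyte and 1 in astrocyte cultures. Srebf2, the transcription factor that drives sterol genes, read 8.80, 8.96, 9.06 and 9.09 in oligodendrocyte and 7.59, 7.20, 7.23 and 7.62 in astrocyte arrays (-1.57 ± 0.16). With the mean of its probe sets the Srebf2 difference was -0.81, below the size asked for. Srebf1, its relative better known for fatty acid genes, was higher in astrocyte cultures, at 10.43, 9.65, 9.58 and 8.94 against 8.22, 7.36, 7.32 and 7.20, a difference of 2.12 ± 0.36 (adjusted p = 0.000279). Insig1, which holds these factors in the endoplasmic reticulum and is itself one of their targets, was higher in oligodendrocyte cultures (-3.14 ± 0.20), as was the sterol carrier Stard4 (-2.91 ± 0.34). Of 11 genes of fatty acid synthesis, 6 were higher in oligodendrocyte cultures, among them Scd (-3.04 ± 0.23), Acsl3 (-2.94 ± 0.26) and Fasn (-2.30 ± 0.22), and 1 in astrocyte cultures, the desaturase Fads1 (1.23 ± 0.26). Of 11 genes for myelin lipids, 7 were higher in oligodendrocyte cultures and 0 in astrocyte cultures. Gal3st1, which sulphates galactosylceramide, read 9.53, 9.49, 9.11 and 9.28 against 4.61, 4.44, 4.30 and 4.69 (-4.84 ± 0.25), and Fa2h, which hydroxylates its fatty acid, differed by -3.94 ± 0.18.

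The promoters of 3 sterol genes are shown because the genes of this pathway changed together. They were picked after their values and matches were seen. Each is the 250 bases before the annotated start in RefSeq, assembly GRCr8, on the minus strand of the genome and written 5′ to 3′ toward the gene. Capitals mark the letters ATTGG, or CCAAT where they lie on the other strand, the core of the CCAAT box, which the factor NF-Y binds and which often lies beside the site of the sterol-responsive factors. The regions are chr17:66547525-66547774 for Idi1, chr13:84722755-84723004 for Hsd17b7 and chr2:176804817-176805066 for Fdps.
Idi1: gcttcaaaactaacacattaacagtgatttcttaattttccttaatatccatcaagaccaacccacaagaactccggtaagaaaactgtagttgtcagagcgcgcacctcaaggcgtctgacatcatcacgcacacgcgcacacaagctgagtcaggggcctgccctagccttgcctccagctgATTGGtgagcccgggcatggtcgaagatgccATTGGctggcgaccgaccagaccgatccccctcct
Hsd17b7: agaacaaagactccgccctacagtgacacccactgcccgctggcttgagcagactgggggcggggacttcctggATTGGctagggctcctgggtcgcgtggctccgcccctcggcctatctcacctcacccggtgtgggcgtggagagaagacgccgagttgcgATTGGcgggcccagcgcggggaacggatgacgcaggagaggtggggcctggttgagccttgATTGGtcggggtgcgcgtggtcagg
Fdps: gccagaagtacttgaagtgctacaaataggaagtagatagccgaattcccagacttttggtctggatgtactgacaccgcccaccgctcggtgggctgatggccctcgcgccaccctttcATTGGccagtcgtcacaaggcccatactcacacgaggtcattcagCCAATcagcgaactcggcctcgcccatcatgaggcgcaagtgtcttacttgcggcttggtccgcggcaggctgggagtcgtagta
The box began 66 and 35 bases before the start in Idi1, 176, 86 and 25 bases before it in Hsd17b7, and 130 and 85 bases before it in Fdps. Of the 14 sterol genes with a promoter in the table, 11 (78.6%) held these letters, against 4116 of 11733 (35.1%) of all measured genes with one and 9 of 16 (56.2%) of the contractile genes described below, which were higher in astrocyte cultures. The letters TCACNCCAC, 1 form of the sterol response element, were in 0 of the 14 and in 115 (0.98%) of all. These are matches of letters in a window and not measured binding.

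Genes of lipid export lay on either side, with 3 of 14 higher in astrocyte and 3 in oligodendrocyte cultures. Apod, a lipocalin made by oligodendrocytes, was higher in oligodendrocyte cultures (-5.17 ± 0.84), as were Ch25h, which makes 25-hydroxycholesterol (-4.15 ± 0.64), and the efflux pump Abcg1 (-2.51 ± 0.35). Their oligodendrocyte means were 10.77, 10.08 and 8.53, beside microglial means of 8.66, 9.57 and 9.90. Clu, the apolipoprotein clusterin (4.68 ± 0.59), and the efflux pump Abca1 (1.21 ± 0.32) were higher in astrocyte cultures. Apoe was at high signal in both and was not called; astrocyte replicate 4 was low at 9.85, against 13.05, 12.56 and 12.61 in the other astrocyte arrays. Around lysophospholipids, the enzyme Enpp2 read 10.84, 10.52, 10.43 and 10.86 in oligodendrocyte and 4.62, 4.34, 4.22 and 4.06 in astrocyte arrays. The receptor Lpar1 for its product was on the same side (-3.62 ± 0.51), as was the sphingosine phosphate receptor S1pr5 (-1.69 ± 0.30). The receptors S1pr1 (4.56 ± 0.84) and S1pr3 (4.66 ± 0.50) and Plpp1 (2.15 ± 0.26), a phosphatase that breaks such lipids down, were higher in astrocyte cultures.

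Of 18 growth factors and their receptors, 8 were higher in astrocyte and 2 in oligodendrocyte cultures. Pdgfra was an oligodendrocyte-side gene, while the ligand Pdgfc (1.97 ± 0.37) and the other receptor Pdgfrb (2.08 ± 0.18) were higher in astrocyte cultures, and the ligand Pdgfa was called only without astrocyte replicate 4, on the oligodendrocyte side (-0.65 ± 0.42 with and -1.12 ± 0.33 without it). The EGF receptor ligand Tgfa read 9.58, 9.84, 10.96 and 10.61 in oligodendrocyte and 4.67, 4.74, 5.19 and 7.10 in astrocyte arrays (-4.82 ± 0.52, adjusted p = 3.03e-06). Egfr itself read 7.89, 7.40, 7.26 and 5.41 in astrocyte and 4.85, 3.95, 3.70 and 4.02 in oligodendrocyte arrays (2.86 ± 0.41), and the other ligand Hbegf was on its side (2.87 ± 0.24). Nrg1 (3.45 ± 0.47) and the co-receptor Erbb2 (2.34 ± 0.14) were higher in astrocyte cultures, while the Nrg1 receptor Erbb3 did not reach the size asked for (-0.88 ± 0.15). Fgf1 (3.08 ± 0.57) and Fgfr3 were higher in astrocyte cultures, with Fgf1 at 10.27 in astrocyte replicate 4 and 6.81, 6.85 and 7.28 in the others.

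In the BMP and TGF-beta pathways, 11 of 23 genes were higher in astrocyte and 2 in oligodendrocyte cultures (median 1.08). The ligand Bmp4, known to push precursors toward astrocytes, was higher in oligodendrocyte cultures, at 9.86, 9.59, 9.42 and 10.11 against 5.24, 5.24, 5.21 and 7.87 (-3.85 ± 0.52). The antagonists Nog (2.93 ± 0.45) and Chrdl1 (5.80 ± 0.81) were higher in astrocyte cultures. So were the target genes Id1 (2.47 ± 0.36), Id3 (3.32 ± 0.41) and Id4 (2.37 ± 0.36), inhibitors of helix-loop-helix factors such as the Olig proteins. Tgfb1 was higher in oligodendrocyte cultures (-1.54 ± 0.32) with a microglial mean of 10.09, and Tgfb3 was higher in astrocyte cultures (4.63 ± 0.41). Inhba, which encodes an activin subunit, was far higher in 1 array: it read 4.78, 6.18, 5.99 and 11.04 in astrocyte cultures, a difference of 3.18 ± 0.94 with and 1.83 ± 0.44 without replicate 4, called in both fits but not in a fit of the 8 arrays alone (adjusted p = 0.0743).

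Of 10 genes of insulin-like growth factor signalling, 5 were higher in astrocyte cultures, among them the binding proteins Igfbp2 (5.56 ± 0.66), Igfbp7 (2.91 ± 0.38) and Igfbp5 (1.80 ± 0.37) and the receptor Igf1r (1.33 ± 0.25). Igf1 itself was not called with all arrays (4.95, 7.07, 7.11 and 10.61 in astrocyte, 7.54, 8.93, 8.34 and 9.42 in oligodendrocyte). Without astrocyte replicate 4 it was called higher in oligodendrocyte cultures (-2.18 ± 0.67, adjusted p = 0.0183), with a microglial mean of 12.54. Of 16 Wnt pathway genes, 8 were higher in astrocyte cultures, led by the receptors Fzd2 (4.58 ± 0.21), Fzd8 (2.45 ± 0.34) and Fzd1 (2.27 ± 0.15) and the antagonist Sfrp1 (2.50 ± 0.31). The target Axin2 was higher there too (1.33 ± 0.19). The nuclear effector Tcf7l2 was the 1 gene on the oligodendrocyte side. In the Notch pathway 3 of 14 genes were higher in astrocyte cultures, all transcriptional repressors that Notch induces: Hey2 (3.34 ± 0.39), Hes1 and Hey1 (2.06 ± 0.23). The ligand Dll1 was called on the oligodendrocyte side without astrocyte replicate 4 (-0.98 with and -1.16 without it), as it was without astrocyte replicate 2 (-1.03) or oligodendrocyte replicate 1 (-1.15) or 4 (-1.08).

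Among neurotrophic genes, the cytokine Cntf, a survival factor for neurons and oligodendrocytes, read 10.23, 10.61, 10.72 and 10.94 against 7.49, 6.35, 5.0 and 6.08, a difference of 4.40 ± 0.40 (adjusted p = 5.48e-07). Midkine (Mdk, 2.79 ± 0.35) and Ntf3 (1.25 ± 0.23) were also among the 4 of 15 higher in astrocyte cultures. The p75 receptor Ngfr was higher in oligodendrocyte cultures (-1.73 ± 0.48), with an adjusted p of 0.0588 in a fit of the 8 arrays alone. Besides Aldh1a1, the retinoic acid receptor Rarb (3.67 ± 0.35) and Rbp4 (1.30 ± 0.33) were higher in astrocyte cultures, 3 of 10 retinoid genes. Guidance genes divided nearly evenly, 6 toward astrocyte and 7 toward oligodendrocyte cultures of 24. Sema3b (3.60 ± 0.26) and Sema3c (4.50 ± 0.40) were higher in astrocyte cultures, whereas Sema3d (-4.27 ± 0.29), Sema3e (-3.10 ± 0.51), Sema4d (-2.27 ± 0.50), Sema6a (-2.15 ± 0.35) and Sema6d (-2.17 ± 0.48) joined Sema5a on the oligodendrocyte side.

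**Figure D3:**
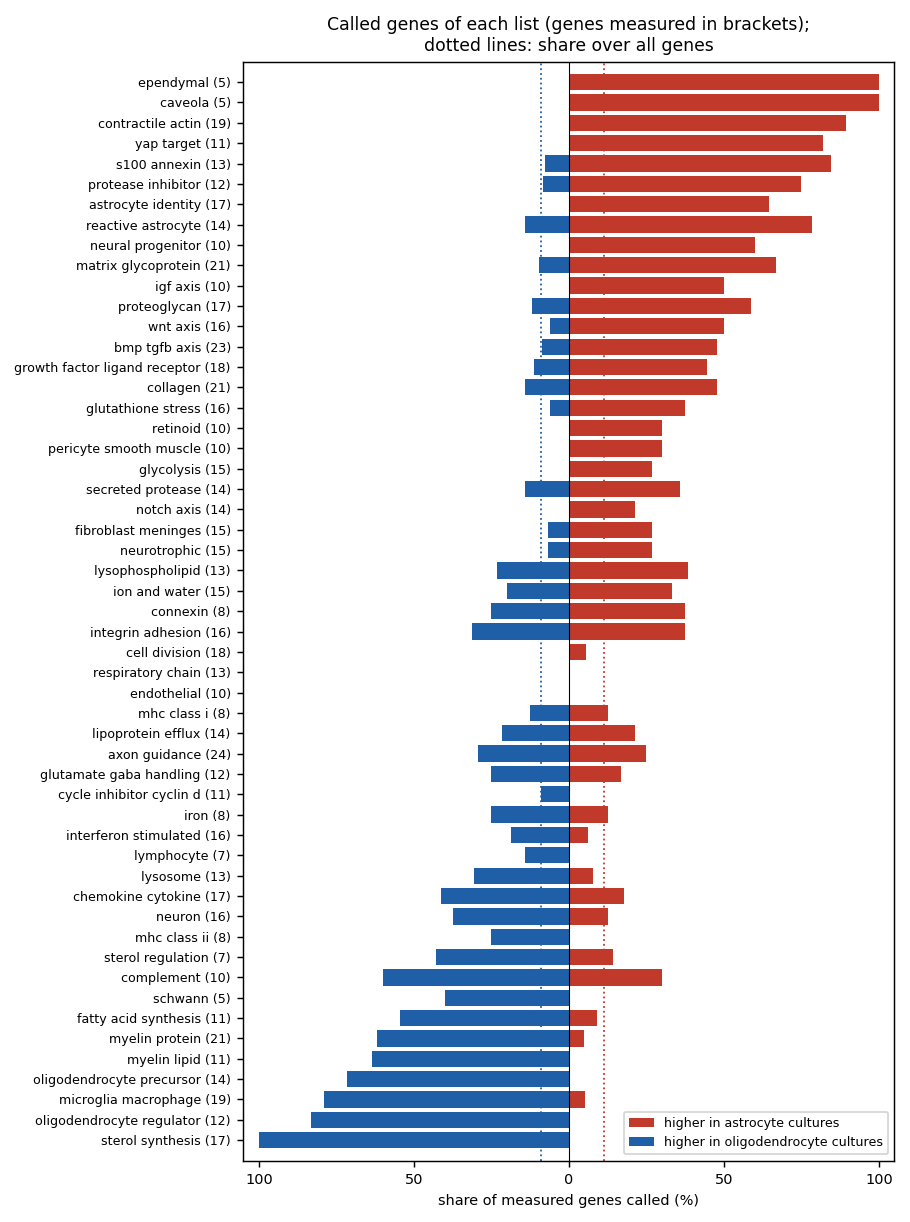
Share of the measured genes of each of 53 lists that were called higher in astrocyte (right) or oligodendrocyte (left) cultures; brackets give the number measured and dotted lines the shares over all genes, 11.4% and 9.15%. Sterol synthesis is called in full on the oligodendrocyte side, caveola and ependymal genes in full on the astrocyte side, and cell division and respiratory chain genes hardly at all.

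Contractile genes were nearly all higher in astrocyte cultures: 17 of 19 measured and 0 in oligodendrocyte cultures, with a median difference of 3.05. Tagln, transgelin, read 13.03, 13.41, 13.47 and 13.65 in astrocyte and 9.76, 6.16, 6.01 and 7.93 in oligodendrocyte arrays. Acta2, smooth muscle actin, read 9.37, 10.53, 10.57 and 12.83 against 7.98, 7.47, 7.84 and 7.81, a difference of 3.05 ± 0.52 (adjusted p = 0.000246). Myl9 (4.81 ± 0.47), Cald1 (4.88 ± 0.47), Tpm1 (3.97 ± 0.30), Tpm2 (4.31 ± 0.74), Actn1 (4.20 ± 0.31), Flna (3.39 ± 0.17) and Vcl (3.36 ± 0.30) belong to the same stress fibre machinery. The list mean was highest in astrocyte replicate 4 (11.08) and lowest of its group in replicate 1 (9.76), still above every oligodendrocyte array (6.87 to 7.70), and 15 genes were called without replicate 4. Caveola genes were called for 5 of 5, with Cav2 (5.18 ± 0.43), Cavin3 (5.13 ± 0.58) and Cav1 (2.33 ± 0.29) among them. Of 13 S100 and annexin genes 11 were higher in astrocyte cultures, led by S100a11 (5.11 ± 0.61) and Anxa1 (4.25 ± 0.54), and Anxa3, which microglial cultures also carried (11.42), was higher in oligodendrocyte cultures (-3.86 ± 0.47).

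Genes that respond to or act with the mechanosensitive cofactors YAP and TAZ were higher in astrocyte cultures for 9 of 11, with 8 called without astrocyte replicate 4. Ccn2, connective tissue growth factor, read 11.11, 11.43, 11.46 and 13.77 in astrocyte and 7.49, 3.80, 4.83 and 7.64 in oligodendrocyte arrays (6.0 ± 0.76, adjusted p = 1.56e-05). Ccn1, its close relative, read 7.47, 7.42, 7.56 and 10.58 against 3.85, 3.77, 3.89 and 4.66 (4.22 ± 0.51). In both genes astrocyte replicate 4 was the highest array. Ajuba, a scaffold at cell junctions that acts on the same pathway, was level over the astrocyte arrays, at 10.15, 10.19, 10.17 and 10.03 against 5.22, 4.16, 3.67 and 4.33 (5.79 ± 0.26). The DNA-binding partner Tead1 (2.24 ± 0.31), the cofactor TAZ itself (Wwtr1, 1.61 ± 0.20), Lats2 (1.79 ± 0.23), Axl (2.96 ± 0.27), Crim1 (1.55 ± 0.24) and Ankrd1 (1.09 ± 0.30) were also higher, Ankrd1 not without replicate 4 (0.67 ± 0.16) or in a fit of the 8 arrays alone (adjusted p = 0.0661).

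The promoters of Ccn2 (chr1:22624615-22624864) and Ccn1 (chr2:237225690-237225939) are shown because the data bear on both as secreted members of that list, with differences of 6.0 and 4.22. They are again the 250 bases before the annotated start in RefSeq GRCr8, both on the minus strand, written toward the gene, with capitals for the letters GGAATG, or CATTCC where they lie on the other strand, the core that TEAD proteins bind.
Ccn2: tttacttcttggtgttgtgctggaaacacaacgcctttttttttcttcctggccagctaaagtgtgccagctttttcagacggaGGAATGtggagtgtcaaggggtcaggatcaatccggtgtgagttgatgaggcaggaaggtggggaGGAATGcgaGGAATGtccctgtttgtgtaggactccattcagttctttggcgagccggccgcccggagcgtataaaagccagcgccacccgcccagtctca
Ccn1: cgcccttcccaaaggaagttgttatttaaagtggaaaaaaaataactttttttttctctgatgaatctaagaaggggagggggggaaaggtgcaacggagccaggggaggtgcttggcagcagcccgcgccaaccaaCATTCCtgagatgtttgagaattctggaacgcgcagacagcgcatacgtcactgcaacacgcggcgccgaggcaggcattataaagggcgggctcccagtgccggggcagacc
The motif began 166, 101 and 92 bases before the start in Ccn2 and 113 bases before it in Ccn1. It was in 4 of the 8 promoters of the list (50%), in 6 of 16 of the contractile genes (37.5%) and in 1218 of 11733 (10.4%) of all measured genes. The list was made of genes that respond to or act with YAP and TAZ, cofactors with Tead1 as a DNA-binding partner. Both printed genes are among the 4. The share is therefore no independent finding about these cultures. The match is a description and not a measured site.

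Many matrix genes were on the astrocyte side, 14 of 21 glycoproteins (median 3.39), 10 of 17 proteoglycans and 10 of 21 collagens. Fn1, fibronectin, read 11.77, 11.96, 11.81 and 12.58 against 6.96, 5.26, 5.79 and 7.92 (5.55 ± 0.43), and Sparc, a matrix-binding glycoprotein, read 12.95, 12.91, 12.79 and 13.08 against 9.20, 6.93, 7.27 and 8.14 (5.04 ± 0.59). The groups did not overlap in either gene. Lamb2 (5.11 ± 0.22), a laminin chain of the basement membrane, Tnc (4.16 ± 0.62), Bgn (4.32 ± 0.51), Prelp (4.42 ± 0.17), Ogn (5.17 ± 0.17) and the syndecans Sdc4 (4.41 ± 0.38) and Sdc2 (4.20 ± 0.16) were higher too. Oligodendrocyte cultures had their own matrix genes: Vcan, the brevican gene Bcan (-1.58 ± 0.39), Tnr and the laminin chain Lama4 (-1.86 ± 0.32), and the collagens Col9a3 (-3.73 ± 0.36) and Col16a1 (-1.65 ± 0.25). Of 12 protease inhibitors 9 were higher in astrocyte cultures and 1, Timp4 (-1.30 ± 0.28), in oligodendrocyte cultures. Among proteases, Prss23 (5.82 ± 0.43), Plat (4.48 ± 0.54) and Mmp14 (3.92 ± 0.32) were astrocyte-side and Adamts4 (-3.42 ± 0.54) and Mmp15 (-1.99 ± 0.32) oligodendrocyte-side genes.

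The collagens of types I and III depended on astrocyte replicate 4. Col1a2, a chain of type I collagen, read 8.24, 7.92, 8.02 and 13.11 in astrocyte and 7.27, 3.95, 4.93 and 7.44 in oligodendrocyte arrays. The difference was 3.43 ± 1.0 (adjusted p = 0.0138), and 2.16 ± 0.66 (adjusted p = 0.0177) without astrocyte replicate 4. Col1a2 was not called without oligodendrocyte replicate 2 (2.78, adjusted p = 0.0507) or in a fit of the 8 arrays alone (adjusted p = 0.0796). Col1a1, the partner chain, was not called with all arrays (2.81 ± 1.12) or without astrocyte replicate 4 (1.40 ± 0.75), but was called without astrocyte replicate 1 (3.48) or oligodendrocyte replicate 4 (3.44). Col3a1 was called with all arrays (2.90 ± 0.99) and not without astrocyte replicate 4 (1.66 ± 0.66, adjusted p = 0.0672), oligodendrocyte replicate 2 (2.42) or oligodendrocyte replicate 3 (2.35), with array weights (1.53) or in a fit of the 8 arrays alone (adjusted p = 0.131). Oligodendrocyte replicates 1 and 4 also read above replicates 2 and 3 in all 3 genes. Col12a1 (4.86 ± 0.33) and the type VI chains Col6a1 and Col6a2 were called with and without astrocyte replicate 4: Col6a2 read 9.21, 9.17, 9.31 and 8.88 against 5.27, 4.36, 4.45 and 4.74 (4.44 ± 0.18), and Col6a1 differed by 3.24 ± 0.17. The other measured type VI chain, Col6a3, was below the array medians in all 8 arrays and was not called (0.31 ± 0.13, and 0.18 ± 0.12 without astrocyte replicate 4).

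Of the genes called with or without astrocyte replicate 4, the 8 whose difference moved most when it was left out went in both directions, and Inhba and Col1a2 were among them. The collagen cross-linking enzymes Lox and Loxl2 were high in that array, at 12.12 against 6.0, 6.66 and 6.72 for Lox, and their differences fell from 3.80 and 3.19 to 2.39 and 1.93 without it. Efemp1, a matrix glycoprotein, read 10.05, 10.47, 10.28 and 4.64, so that replicate 4 was nearer to the oligodendrocyte arrays (3.54, 3.47, 3.50 and 3.86), and its difference was 5.26 with and 6.67 without that array. Chrdl1 (10.41, 10.46, 10.59 and 5.44), Tppp3 (11.50, 10.19, 10.03 and 5.17) and Maob, monoamine oxidase B (10.70, 10.32, 10.10 and 5.36), showed the same pattern, with differences of 7.07, 5.60 and 4.50 without it. In a fit of the 8 arrays alone Loxl2 and Maob were not called (adjusted p = 0.0641 and 0.0529). Astrocyte replicate 4 also had the lowest mean over the astrocyte genes of its group (8.97, against 9.88 to 10.35) and the highest over the 21 collagens (8.87, against 7.16, 7.17 and 7.16).

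Markers of other cells were set beside these results. Of 15 genes of meningeal fibroblasts, 4 were higher in astrocyte cultures and 1, Islr (-2.43 ± 0.24), in oligodendrocyte cultures, with a median of 0.10; without astrocyte replicate 4 these counts were 2 and 2. The mean over the list was 5.22 to 6.68 in astrocyte arrays, highest in replicate 4, and 4.54 to 5.27 in oligodendrocyte arrays. The 4 were Ogn, Col1a2, Col3a1 and the transcription factor Twist1 (1.03 ± 0.35, and 0.53 ± 0.17 without astrocyte replicate 4). Twist1 was also not called when any 1 of the oligodendrocyte arrays was left out (adjusted p = 0.052 to 0.0717), in a fit of the 8 arrays alone (adjusted p = 0.117), with array weights (0.71) or with the mean of its probe sets (0.69). Ogn was level over the astrocyte arrays (10.14, 9.96, 10.07 and 10.04). The list members Col1a1, Col1a2 and Col3a1 read 12.56 to 13.11 in astrocyte replicate 4 and 6.78 to 8.24 in the other astrocyte arrays. Below the array medians in all 8 arrays, replicate 4 included, were Dcn, Lum, Foxc1, Aldh1a2, Slc6a13, Ptgds and Dpt. Of 10 pericyte and smooth muscle genes 3 were higher in astrocyte cultures, Acta2, Myh11 (2.21 ± 0.29) and Pdgfrb, while Des, Rgs5, Abcc9, Kcnj8 and Notch3 were below the medians throughout. Of 10 endothelial genes, 0 were called with limma at the size asked for, although 3 had an unadjusted p and 2 an adjusted p below 0.05. All but Esam and Egfl7 were below the medians in every array, Pecam1, Kdr and Cldn5 included. The part of fibroblasts or mural cells in the matrix and contractile differences was not tested.

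Genes of cilia and the ventricular lining were higher in astrocyte cultures for 5 of 5. Tekt1, a protein of ciliary microtubules, read 9.58, 8.74, 8.92 and 6.60 against 4.86, 4.50, 4.91 and 4.76, a difference of 3.70 ± 0.42 (adjusted p = 5.58e-06). Foxj1, the master factor of motile cilia, read 7.81, 7.11, 7.30 and 4.83 against 4.72, 4.24, 4.39 and 4.05 (2.41 ± 0.45). Rsph1 (2.81 ± 0.58), Mlf1 (2.77 ± 0.76) and Dnai1 (1.41 ± 0.23) followed. In each of these genes replicate 1 was the highest and replicate 4 the lowest astrocyte array, and the mean over the list was 5.20 to 8.40 in astrocyte and 4.20 to 4.69 in oligodendrocyte arrays.

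Microglial and macrophage genes were higher in oligodendrocyte cultures for 15 of 19 measured genes (median -3.56). The mean over the list was 7.95 to 8.74 in oligodendrocyte, 4.81 to 6.14 in astrocyte and 10.23 to 10.69 in microglial arrays. Aif1, the marker Iba1, read 10.05, 10.71, 10.22 and 10.27 in oligodendrocyte and 3.75, 4.38, 5.25 and 3.20 in astrocyte arrays, against a microglial mean of 11.30 ± 0.44 (SD, n = 4). Csf1r, the receptor that microglia need to survive, read 9.25, 10.31, 10.67 and 10.08 against 4.90, 6.38, 6.35 and 4.35, with 12.12 ± 0.21 in microglial cultures. Fcer1g (-5.97 ± 0.44), Tyrobp (-5.06 ± 0.33), Ptprc (-4.47 ± 0.17), Cd53 (-4.35 ± 0.51), Ctss (-4.25 ± 0.51), Cd68 (-4.0 ± 0.52) and the C1q chains followed. P2ry12, a receptor of resting microglia, had a mean of 6.17 ± 0.42 in oligodendrocyte and 9.83 ± 0.53 in microglial cultures and was called (-2.74 ± 0.23). Gpr34 and Cx3cr1, other receptors of such cells, were below the array medians in all oligodendrocyte arrays and were not called. Olfml3 went the other way (3.37 ± 0.31). The part of microglia in the other oligodendrocyte-side calls was not tested. The ranges of the sterol list mean in microglial and astrocyte cultures, given above, overlapped, which does not measure that part. The microglial cultures themselves read oligodendrocyte genes, with means of 12.08 for Mbp, 8.56 for Sox10 and 10.67 for Bcas1.

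Cytokine genes were higher in oligodendrocyte cultures for 7 of 17. Il1b, the inflammatory cytokine interleukin-1 beta, read 9.44, 10.67, 12.80 and 11.03 against 4.50, 4.61, 4.15 and 4.33, with a microglial mean of 8.53 ± 1.15. That mean was below each of the 4 oligodendrocyte arrays. Ccl3 (-4.99 ± 0.44), Ccl4 (-5.05 ± 0.55), Tnf (-4.06 ± 0.52), Cxcl2 (-3.99 ± 0.89) and Il18 (-3.09 ± 0.34) were also higher. Astrocyte cultures were higher in Cxcl12 (3.84 ± 0.70), Il34 (2.96 ± 0.40) and Il6 (2.21 ± 0.66). Il34, a ligand of Csf1r, read 7.90, 7.67, 7.96 and 6.50 against 4.86, 4.37, 4.79 and 4.18, opposite to its receptor. Il6 read 4.22, 5.85, 6.46 and 8.98 in astrocyte arrays, highest in replicate 4, and was called without that array too (1.34 ± 0.41, adjusted p = 0.0185), but not in a fit of the 8 arrays alone (adjusted p = 0.0932). Its groups overlapped, with oligodendrocyte arrays of up to 4.75. The chemokine Ccl2 was at high signal in both cultures (10.59 ± 0.93 and 11.14 ± 0.60) and was not called.

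Of 10 complement genes, 6 were higher in oligodendrocyte and 3 in astrocyte cultures. C1qa, a chain of the recognition molecule C1q, read 8.42, 10.62, 10.63 and 11.03 in oligodendrocyte and 4.76, 7.78, 7.92 and 4.27 in astrocyte arrays (-3.99 ± 0.74). C1qb (-3.29 ± 0.61), C1qc (-3.42 ± 0.55) and the receptors C5ar1 (-3.91 ± 0.38) and C3ar1 (-2.10 ± 0.29) were on the same side, as was Cfd (-1.46 ± 0.36). The proteases that C1q activates were on the other: C1s read 11.59, 11.61, 11.63 and 10.12 in astrocyte and 9.14, 5.74, 4.83 and 7.25 in oligodendrocyte arrays (4.50 ± 0.67), and C1r differed by 3.98 ± 0.41. Their inhibitor Serping1 was with them (4.83 ± 0.94). C3 was at high signal in 7 of the 8 arrays, with astrocyte replicate 4 at 7.64, and was not called (-0.85 ± 0.72, and 0.07 ± 0.47 without that array).

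Within the astrocyte cultures, replicates 2 and 3 carried more macrophage and interferon signal than replicates 1 and 4. The macrophage list averaged 6.05 and 6.14 in them against 4.81 and 4.90, and the interferon list 7.88 and 8.07 against 6.77 and 5.87. In the interferon list 3 of 16 genes were higher in oligodendrocyte cultures, Usp18 (-2.94 ± 0.83), Mx2 (-2.39 ± 0.64) and Oas1a (-2.34 ± 0.68), and 1, Gbp2 (1.89 ± 0.51), in astrocyte cultures. The ranges of the list mean overlapped, 5.87 to 8.07 against 7.11 to 9.16, with oligodendrocyte replicate 3 highest.

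**Figure D4:**
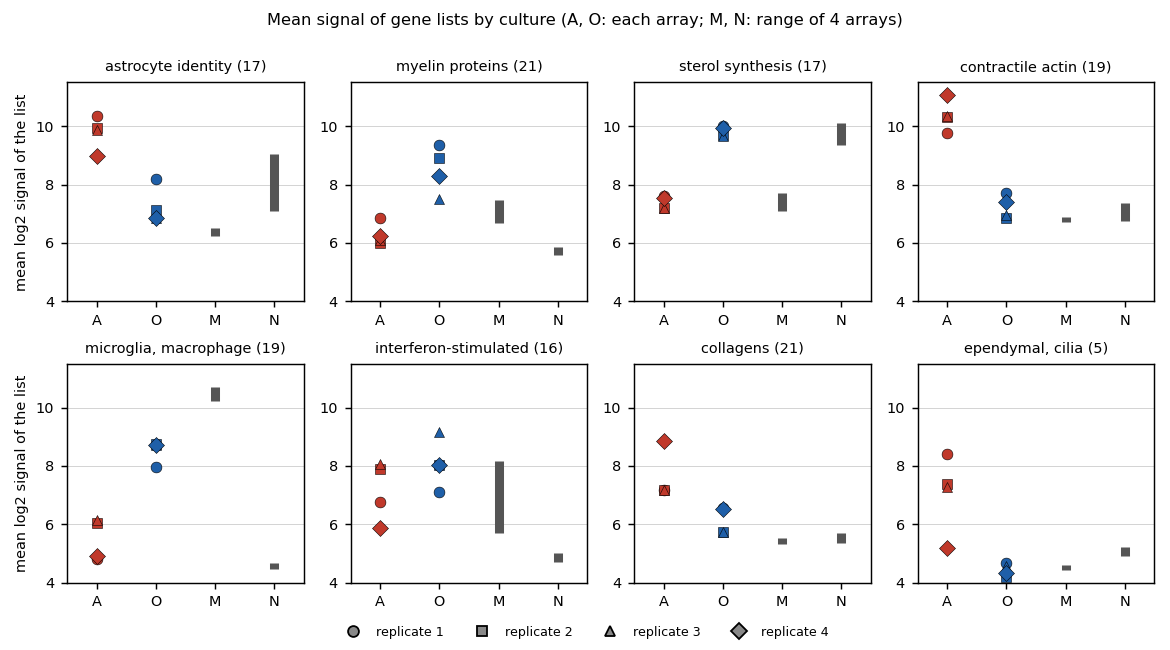
Mean log2 signal of 8 gene lists in each astrocyte (A) and oligodendrocyte (O) array, with the range over the 4 microglial (M) and 4 neuronal (N) arrays as grey bars; panel titles give the genes measured. Macrophage genes lie at 7.95 to 8.74 in oligodendrocyte arrays, between the astrocyte and microglial ranges, and sterol genes in oligodendrocyte arrays lie in the neuronal range.

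The 8 called genes with the largest spread over the oligodendrocyte cultures followed the same replicates. Il1a, interleukin-1 alpha, read 4.82, 7.06, 11.57 and 9.34 in oligodendrocyte and 4.04, 4.24, 4.04 and 4.05 in astrocyte arrays (-4.10 ± 0.93). Saa3, an acute phase apolipoprotein, read 6.79, 10.02, 12.55 and 10.60 against 4.43, 4.71, 4.50 and 4.59 (-5.43 ± 1.16), and Cxcl2 read 5.37, 6.44, 10.68 and 9.27. Akr1b8 (5.64, 6.90, 11.12 and 9.94), the activation marker Cd69 (4.43, 5.16, 9.37 and 6.53) and the Fc receptor Fcgr2b (5.63, 6.98, 10.51 and 10.77) were likewise lowest in replicate 1 and high in replicates 3 and 4. Mobp and Aqp4 ran the other way, highest in replicate 1 and lowest in replicate 3. The groups overlapped in Aqp4 and Fcgr2b and in none of the other 6, and in a fit of the 8 arrays alone Cd69 and Fcgr2b were not called (adjusted p = 0.0795 and 0.0687). What set the replicates apart was not tested.

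**Figure D5:**
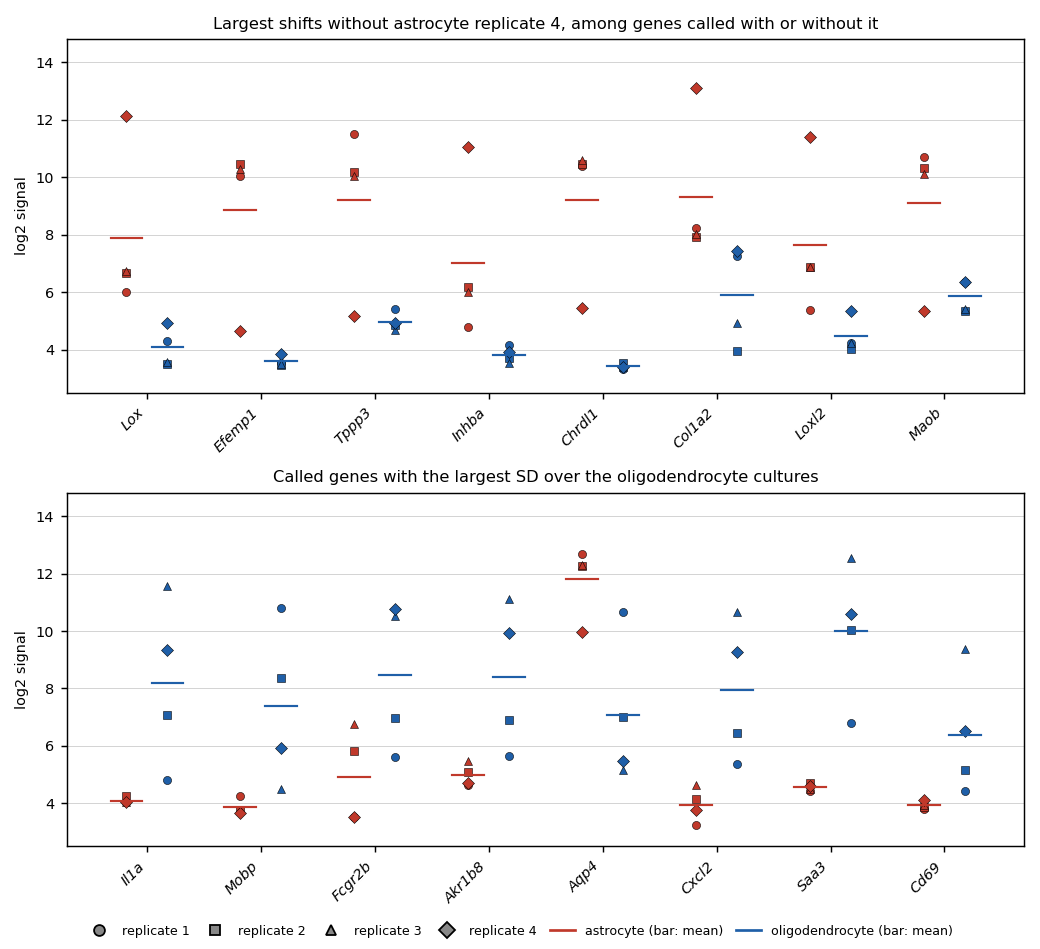
Log2 signal in each array of the 8 genes whose difference moved most without astrocyte replicate 4, among genes called with or without it (top), and of the 8 called genes with the largest SD over oligodendrocyte cultures (bottom); bars are group means. Replicate 4 (diamonds) lies apart from the other astrocyte arrays in the top panel, and oligodendrocyte replicate 3 (triangles) is highest for Il1a, Akr1b8, Cxcl2, Saa3 and Cd69 and lowest for Mobp and Aqp4.

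Of 16 measured neuronal genes, 6 were higher in oligodendrocyte and 2 in astrocyte cultures, with list means of 5.59 to 6.33 and 5.35 to 5.62 against 10.31 to 10.51 in neuronal cultures. Dcx, a microtubule protein of young neurons, read 7.25, 7.26, 8.80 and 6.72 in oligodendrocyte and 3.65, 3.53, 3.45 and 3.66 in astrocyte arrays (-3.94 ± 0.39), with a neuronal mean of 9.68. Tubb3 (-3.41 ± 0.33), Elavl4 (-2.07 ± 0.28), Snap25 (-1.82 ± 0.44), Map2 (-1.33 ± 0.38) and Elavl3 (-1.17 ± 0.13) were on the same side. Stmn2, a growth cone protein, was higher in astrocyte cultures, at 11.78, 12.25, 12.20 and 9.64 against 7.34, 5.53, 6.49 and 4.88 (5.41 ± 0.55, adjusted p = 1.69e-06), with a neuronal mean of 13.19. Gad1, which makes GABA, was called on that side as well (2.63 ± 0.72), with overlapping groups. Rbfox3 and Nefl were below the array medians in all 8 arrays. Schwann cell genes gave 2 oligodendrocyte-side calls of 5, Pmp2 (-2.49 ± 0.54) and Ngfr.

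Few genes of cell division were called. Of 18 genes of the cell cycle 1 was higher in astrocyte cultures, Aurkb (1.76 ± 0.34), and 0 in oligodendrocyte cultures, with a median of -0.16. In limma 4 had an unadjusted p and 4 an adjusted p below 0.05, Aurkb included, and the others did not reach the size asked for. Mki67 read 6.71, 7.94, 7.83 and 7.84 in astrocyte and 7.91, 8.0, 7.83 and 8.40 in oligodendrocyte arrays, and Top2a 8.54, 9.49, 9.03 and 9.45 and 9.06, 9.09, 8.67 and 9.19. The list mean was 7.61 to 8.17 and 7.91 to 8.27, against 4.91 to 5.09 in neuronal cultures. Among 11 cell cycle inhibitors and D cyclins the call was Cdkn1c, an inhibitor of cyclin-dependent kinases, which read 10.74, 10.95, 9.70 and 11.19 in oligodendrocyte and 6.36, 6.84, 6.89 and 6.04 in astrocyte arrays (-4.11 ± 0.44, adjusted p = 3.16e-06). Without astrocyte replicate 4 the list gave 1 astrocyte-side and 2 oligodendrocyte-side calls, with the tumour suppressors Rb1 (0.97 with and 1.03 without it, and also called without oligodendrocyte replicate 1 or 2, at 1.05 and 1.06) and Cdkn2a (-1.10 and -1.79) added. Cdkn1b, another such inhibitor, was not called (10.61 ± 0.14 and 10.50 ± 0.12, SD, n = 4).

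Of 13 respiratory chain genes, 0 were called with limma at the size asked for, although 6 had an unadjusted p and 5 an adjusted p below 0.05. The largest of these differences was that of Atp5f1a (-0.66 ± 0.15). Of 15 glycolysis genes, 4 were higher in astrocyte cultures, among them Ldhb (1.78 ± 0.36) and Pfkm (1.73 ± 0.28), and Eno2 was called on the oligodendrocyte side without astrocyte replicate 4 (-1.13 with and -1.54 without it) or oligodendrocyte replicate 3 (-1.60). Of 16 genes of glutathione and stress defence, 6 were higher in astrocyte cultures, among them the transferases Gsta4 (4.16 ± 0.59) and Gstm1 (3.81 ± 0.55), Gclc, the first enzyme of glutathione synthesis (1.75 ± 0.19), and Nqo1 (2.08 ± 0.54). Sod2, the mitochondrial superoxide dismutase, was higher in oligodendrocyte cultures, at 10.71, 11.13, 12.13 and 11.83 against 9.26, 9.46, 9.59 and 9.19 (-2.08 ± 0.39). Its highest array was oligodendrocyte replicate 3, as for the cytokine genes. Gpx3, a secreted glutathione peroxidase, joined it without astrocyte replicate 4 (-0.95 with and -1.33 without it).

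Of 8 gap junction and pannexin genes, 3 were higher in astrocyte and 2 in oligodendrocyte cultures. Gja1 and Gja5 (1.83 ± 0.17) were on the astrocyte side. Gjb1, the myelin connexin 32, was on the other (-1.37 ± 0.39), but not without oligodendrocyte replicate 1 (-0.85) or in a fit of the 8 arrays alone (adjusted p = 0.079). Cntn1, a cell adhesion protein, read 9.40, 8.97, 9.03 and 9.28 in oligodendrocyte and 4.23, 4.23, 3.99 and 4.26 in astrocyte arrays (-4.99 ± 0.21, adjusted p = 2.34e-10). Ncam2 (-2.09 ± 0.36) and Cdh13 (-1.56 ± 0.35), of the same kind, were also higher there. The integrin chains Itga1 (4.01 ± 0.44), Itgb4 (3.99 ± 0.79), Itga7 (2.63 ± 0.21), Itgb5 (2.53 ± 0.33) and Itga6 (2.01 ± 0.41) and N-cadherin (Cdh2, 1.76 ± 0.24) were higher in astrocyte cultures. Itgb4 read 9.84, 9.27, 9.32 and 4.54 there, so that replicate 4 was near the oligodendrocyte level (4.33, 4.13, 4.35 and 4.22). The glial potassium channel Kcnj10 was not called. Of 15 ion and water genes, 5 were higher in astrocyte and 3 in oligodendrocyte cultures, and of 12 genes that handle glutamate and GABA, 2 and 3. Without astrocyte replicate 4 the latter counts were 4 and 3, with Slc38a1 (1.38 ± 0.29) and Aldh4a1 (1.05 ± 0.21) added. With all arrays the cystine carrier Slc7a11 (-1.37 ± 0.28) and the aminotransferase Got1 (-1.95 ± 0.14) joined Slc1a1, and the glutamine carrier Slc38a3 (1.35 ± 0.31) joined Slc1a3.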

How the data were processed

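RNA of rat primary cultures was labelled by in vitro transcription and hybridised to Affymetrix arrays, per the labels' protocols. The authors deposited log2 values, 1 per probe set and array, and the submitters' processing notes name RMA, which corrects background, normalizes by quantiles and summarises probes, and the affy package. Of 31099 probe sets, 57 controls were left out. Of the rest, 20826 had 1 gene symbol in the platform annotation, 436 several and 9780 none, and each gene was read from 1 probe set, that of the highest mean signal in the 16 cultures. No column of the table was left unmapped.

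The 16 culture arrays were fitted with limma 3.58.1 in R 4.3.3, 1 mean per culture and no covariate (lmFit, eBayes, 12 residual degrees of freedom), with Benjamini-Hochberg adjustment over 31042 probe sets. The fit was tested on simulated data. The text names the 15 genes with the largest difference each way among called genes whose groups did not overlap (predicted genes left out), members of the 53 lists (673 of 751 genes measured), the 8 genes that moved most without astrocyte replicate 4 among those called with or without it, and the 8 called genes with the largest SD over oligodendrocyte cultures. The comparison and the lists were chosen with earlier results of these data known. Lists were counted and not tested. Alternatives were a fit of the 8 arrays alone, the replicate number as a block, median centring, quantile normalization, the dimmest 25% left out, eBayes with trend and robust, array weights, other minimum differences, the mean of a gene's probe sets, and leaving out arrays. The number of arrays limits the precision. Some genes of the lists had no probe set with their symbol and were not analysed here.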

Additional observations from a re-analysis of the deposited data

Results flagged for a closer look

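A level was singled out when the highest or lowest of the 4 arrays of a culture stood far from the other 3 (its gap to the nearest, as a share of the range, above Dixon's 95% critical value), which chance gives in about 1 in 20 groups. Of 770 groups of values, those of the genes and lists of the report in each culture, 85 met this. That rate is for a whole group of 4 arrays. The shares that follow are for single arrays and are not to be set against it. Over all 31042 probe sets the share was 6.21% for astrocyte replicate 4 and between 0.573% and 1.91% for each of the other 7 arrays. No explanation of these levels was tested.

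Astrocyte replicate 4 held most of them. High alone in astrocyte replicate 4 were Adamts4 (8.33), Bmp4 (7.87), C3ar1 (4.75), Ccn1 (10.58), Ccn2 (13.77), Col1a1 (13.01) and Col1a2 (13.11). The same array was also high in Col3a1 (12.56), Fgf1 (10.27), Fgfr3 (11.50), Fmod (12.78), Igfbp2 (13.17), Igfbp5 (9.30) and Lox (12.12). Further high levels there were Nefl (4.89), Plpp1 (12.51), S100a11 (13.13), Tnc (12.15) and Tpm1 (12.97). Higher than the others by the mean of a list in astrocyte replicate 4 were BMP and TGF-beta genes (8.13), collagen genes (8.87), meningeal fibroblast genes (6.68) and progenitor genes (7.87). Low alone in astrocyte replicate 4 were A2m (12.02), Apoe (9.85), Aqp4 (9.97), Atp1b2 (7.62), C1s (10.12), C3 (7.64) and Cav2 (9.95). That array was also low in Chrdl1 (5.44), Clu (10.88), Efemp1 (4.64), Gpnmb (9.27), Id1 (10.36), Itgb4 (4.54) and Lcn2 (7.06). Further low levels in it were Ldhb (10.34), Lgmn (9.74), Maob (5.36), Mlc1 (9.63), Pdgfc (5.62), Plekhb1 (7.89) and Rnase4 (10.84). It was low as well in S1pr1 (8.01), Sdc4 (11.24), Sema3b (5.97), Serping1 (7.91), Slc1a3 (11.34), Slc38a1 (7.71) and Vim (13.71). Lower than the others by the mean of a list in astrocyte replicate 4 were glutathione and stress genes (9.22), respiratory chain genes (10.28) and S100 and annexin genes (10.48).

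The other arrays held fewer. High alone in astrocyte replicate 1 were Fdft1 (7.82) and Ugt8 (5.26). Low alone in astrocyte replicate 1 were Cav1 (11.52), Il18 (6.45) and Mki67 (6.71). Lower than the others by the mean of a list in astrocyte replicate 1 were cell division genes (7.61). High alone in astrocyte replicate 2 were Abcc9 (3.50) and Il1a (4.24). Low alone in astrocyte replicate 2 was Elavl4 (3.49). High alone in astrocyte replicate 3 was Kdr (3.89). Low alone in astrocyte replicate 3 was Cntn1 (3.99). High alone in oligodendrocyte replicate 1 were Aldh1l1 (5.94), Igfbp2 (9.14), Pdgfc (5.76), Serping1 (7.26), Slc1a2 (4.53) and Srebf1 (8.22). Low alone in oligodendrocyte replicate 1 were C1qa (8.42) and Nkx2-2 (8.62). Lower than the others by the mean of a list in oligodendrocyte replicate 1 were macrophage genes (7.95). Low alone in oligodendrocyte replicate 2 was Anxa1 (6.65). High alone in oligodendrocyte replicate 3 were Crim1 (8.92) and Il18 (10.80). Low alone in oligodendrocyte replicate 3 were Mbp (12.35) and Sema6a (8.86). High alone in oligodendrocyte replicate 4 were Ccn1 (4.66), Ebp (7.34), Itga1 (5.34), Loxl2 (5.34), Sema3e (10.54) and Tnr (9.18).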

How the results depend on the processing

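The number of calls depended most on the size asked for: with no minimum difference 5079 probe sets were higher in astrocyte and 5558 in oligodendrocyte cultures, and with a minimum of 2 the counts were 1008 and 910. Leaving out 1 astrocyte or oligodendrocyte array at a time gave 2403 to 2728 and 2334 to 2493 probe sets, and 199 to 209 and 148 to 162 genes of the lists, against 2495, 2438, 209 and 153 with all arrays. Without astrocyte replicate 4 the probe set counts were 2728 and 2493, and without microglial replicate 4 they were 2487 and 2441. The fit of the 8 arrays alone gave 2376 and 2347, median centring 2523 and 2394, quantile normalization 2481 and 2405, and array weights 2696 and 2567. With astrocyte replicates 2 and 3 averaged as 1 array, chosen after seeing the data, the counts were 2408 and 2367. With the replicate number as a block the counts were 2495 and 2439 probe sets and 208 and 154 list genes, and among the genes named in the text Col1a1 alone changed its call (adjusted p = 0.0365). Residual correlations within the numbers 1 to 4 were 0.168, -0.036, 0.059 and -0.011, and only the arrays numbered 1 correlated best with their own number, so the arrays share a number and no shown pairing. Of the 341 genes named, 271 called genes kept their side of the threshold under all 18 alternatives run on single genes. Signs turned in 7 genes that were not called: Lum under quantile normalization (0.01), Dpt with array weights (-0.02), and with 1 array left out Lum (-0.05 to 0.03), C3 (-1.22 to 0.07), Foxc1 (-0.01 to 0.16), Dpt (-0.03 to 0.20), Esam (-0.18 to 0.01), Kcnj8 (-0.03 to 0.13) and Notch3 (-0.15 to 0.01). Low signal limits what genes near the array medians can show.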

Other observations

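Lysosomal and class II histocompatibility genes are described here as further lists. Of 13 lysosomal genes, 4 were higher in oligodendrocyte and 1 in astrocyte cultures, with a median difference of 0.03, where 9.15% and 11.4% of all genes were called on those sides. The 4 were Ctss, given above among the macrophage genes, Ctsz, Gpnmb and the protease Lgmn (-1.36 ± 0.20, and -0.71 with the mean of its probe sets, below the size asked for). Ctsz, a lysosomal protease, read 9.77, 11.08, 11.21 and 10.93 in oligodendrocyte and 6.04, 7.73, 8.02 and 7.22 in astrocyte arrays, a difference of -3.50 ± 0.37 (adjusted p = 2.9e-06 in limma). Its mean in the microglial cultures was 11.99 ± 0.17 (SD, n = 4). Gpnmb, a glycoprotein of macrophage lysosomes, differed by -1.61 ± 0.46. Ctsc, which activates serine proteases of immune cells, lay on the other side, at 10.52, 11.52, 11.51 and 9.80 against 8.74, 9.36, 8.61 and 9.64 (1.75 ± 0.35). Of 8 class II histocompatibility genes, 2 were higher in oligodendrocyte cultures, RT1-DMb (-2.13 ± 0.44) and RT1-DMa (-1.08 ± 0.31), which load peptides onto class II molecules. RT1-DMa was not called without oligodendrocyte replicate 3 (-0.81) or 4 (-0.93), with array weights (-0.93) or in a fit of the 8 arrays alone (adjusted p = 0.051). Class II genes with both group means below the array medians numbered 5 of 8.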
